A study of Mus musculus with 4 samples.

Results

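The Iroquois genes are a family of 6 homeobox transcription factor genes, Irx1 to Irx6, and their RNA was followed through the mesoderm of the mouse heart and pharynx. The members were chosen by name: a gene was included if its symbol in the deposited gene table was 1 of these 6. Each symbol matched exactly 1 of 27998 genes, so that 6 of 27998 genes are described. The rule used no measured value, though the family was picked with earlier results of these data known.

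Single cell RNA-sequencing was carried out on cells that had once expressed Mesp1, a gene of the earliest mesoderm. All embryos were Swiss Webster mice of genotype Mesp1Cre;Rosa26-GFPflox/+, in which Cre made from Mesp1 switches on GFP permanently, and living GFP-positive cells were sorted from pooled embryos. There were 4 libraries, 1 per stage, named by day of development: the early ones were E8.0 and E8.25, of the upper part of the body, and the late ones E9.5 and E10.5, of the heart with the pharyngeal apparatus. Region and stage cannot be told apart between early and late libraries, and values given in stage order follow this sequence. GFP marks descent and not current Mesp1 expression, it is retained by every descendant cell, and cells that never expressed Cre, such as most neural crest, should be missing. A value from 1 library stands for 1 pool of embryos, and there was no replicate of any stage.

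After filtering, 7118, 2884, 3921 and 7525 cells remained in stage order, with a median of 21321, 35216, 17254 and 15205 UMIs (distinct RNA molecules counted) per cell. Pairs of libraries shared between 16 and 88 cell barcodes, from 0.541% to 1.39% of the smaller library. Each cell was placed in a compartment by marker genes, of which no Irx gene was 1, and the compartment names used here stand for those gates. A cell that passed several gates went to the first in a fixed order. The Isl1 cardiac progenitor gate came before the posterior second heart field and branchiomeric gates, so cells passing both counted as Isl1 cells. Of 764, 295, 676 and 557 Isl1 cells in stage order, 308, 46, 154 and 239 passed no other gate. The erythroid gate, of blood cells, held 173, 406, 7 and 1057 cells in stage order. The epithelial or neural gate held 41, 113, 8 and 24, of which 6, 24, 0 and 12 passed no other gate. Erythroid cells served as a level for genes that those cells should lack.

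Iroquois proteins belong to the TALE class of homeodomain proteins, together with the Meis, Pbx, Pknox and Tgif families, and bind DNA as regulators of regional identity. In mammals the genes lie in a pair of clusters that arose by duplication, so that Irx1 and Irx3, Irx2 and Irx5, and Irx4 and Irx6 are paralogues. In the heart, Irx4 is known as a gene of the ventricles, Irx3 for its role in the fast conduction system, Irx5 for the gradient of repolarisation across the ventricular wall, and Irx1 and Irx2 for expression in the ventricular septum.

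In the mm10 genome (GRCm38), the first cluster occupied chromosome 13, where Irx1 lay at chr13:71958232-71963723, Irx2 at chr13:72624430-72634196 and Irx4 at chr13:73259589-73269622. The second occupied chromosome 8, where Irx3 lay at chr8:91798511-91801654, Irx5 at chr8:92357796-92361456 and Irx6 at chr8:92674289-92680956. The clusters spanned 1311 kb and 882.4 kb, and the genes within them were separated by 312.8 to 660.7 kb, so a cluster is a neighbourhood and not a single transcription unit. Promoter windows (250 bases before and 50 after a transcription start) were matched in RefSeq (GRCm38.p6) for 3 of the 6 members, Irx2, Irx3 and Irx4. They are shown because they are the members with a matched window, and because the results that follow turn on Irx4 in cardiomyocytes, Irx3 in early mesoderm and Irx2 in late mesoderm. The Irx2 window is chr13:72628570-72628869 (plus strand), whose start lay 4390 bases inside the annotated gene. The Irx3 window is chr8:91801605-91801904 (minus strand), and the Irx4 window is chr13:73260247-73260546 (plus strand), whose start lay 908 bases inside the gene. Capitals mark matches to the motifs searched.
Irx2 promoter: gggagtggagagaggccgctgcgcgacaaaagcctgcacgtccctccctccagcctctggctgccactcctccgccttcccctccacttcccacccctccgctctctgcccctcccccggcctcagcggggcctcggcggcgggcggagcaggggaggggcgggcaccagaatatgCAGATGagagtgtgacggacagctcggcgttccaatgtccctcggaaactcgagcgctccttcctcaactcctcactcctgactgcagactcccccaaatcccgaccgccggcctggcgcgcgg
Irx3 promoter: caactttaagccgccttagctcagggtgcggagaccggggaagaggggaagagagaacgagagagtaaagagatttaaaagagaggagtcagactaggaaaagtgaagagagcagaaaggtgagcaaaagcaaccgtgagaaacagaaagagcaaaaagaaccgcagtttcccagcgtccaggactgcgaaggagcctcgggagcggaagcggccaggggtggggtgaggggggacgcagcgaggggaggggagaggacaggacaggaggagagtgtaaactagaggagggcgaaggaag
Irx4 promoter: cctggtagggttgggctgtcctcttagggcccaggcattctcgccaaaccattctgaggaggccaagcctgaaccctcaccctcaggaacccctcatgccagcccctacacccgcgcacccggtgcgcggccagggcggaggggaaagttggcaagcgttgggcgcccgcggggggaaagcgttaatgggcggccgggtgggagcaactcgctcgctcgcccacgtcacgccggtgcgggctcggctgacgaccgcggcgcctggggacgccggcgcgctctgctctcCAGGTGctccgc
On both strands, the letters searched were TATAA (TATA box), GATAA (GATA factors), GGTGTGA (T-box site), CANNTG (E-box), TGACAG (TALE factors) and ACANNTGT (Iroquois), of which the last can overlap an E-box. The E-box had 1 match in Irx2 and 1 in Irx4, and the other 5 motifs were in none of the 3 windows. Of 32817 promoter windows of the same length, 72.3% held an E-box, 24.9% TATAA, 25.4% GATAA, 3.98% the T-box site, 19.2% TGACAG and 7.38% the Iroquois motif. Of the bases of each window, 69.0% in Irx2, 56.0% in Irx3 and 70.7% in Irx4 were G or C, and the median of all windows was 52.7%.

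Over all retained cells, the 6 genes followed different courses with stage. Irx3 and Irx5 were lower at the late stages, Irx2 was higher at E10.5 than at any other stage, Irx6 was close to absent early and present late, Irx4 was highest at E9.5, and Irx1 varied least. Levels are given as CPM, a gene's UMIs scaled to all UMIs of the same cells, with exact 95% Poisson intervals, which cover counting error only. They compare a gene with itself, since 3' counts are not levels per length between genes.

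Irx1, a regulator of heart and lung patterning, had 19.6 (18.9 to 20.3), 21.9 (21.1 to 22.9), 14.99 (14.1 to 15.9) and 14.7 CPM (14.03 to 15.4) in stage order. The 2 early libraries were above the 2 late ones, which overlapped. Without erythroid cells the values were 20.3, 25.9, 15.03 and 18.7 CPM in stage order. Irx2 had 5.86 (5.48 to 6.26), 7.37 (6.86 to 7.90), 5.61 (5.07 to 6.19) and 17.99 CPM (17.3 to 18.7). The E10.5 library stood alone for this gene. Irx4 had 1.23 CPM (1.06 to 1.42), 0.821 (0.657 to 1.01), 2.81 (2.43 to 3.22) and 0.328 (0.237 to 0.444) in stage order. No interval of this gene overlapped another. The cardiomyocyte gates, where Irx4 is highest, held 90, 15, 271 and 118 cells in these libraries, and the part of that number in the level was not tested.

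Irx3 had 77.1 (75.7 to 78.5), 83.8 (82.1 to 85.6), 56.3 (54.6 to 58.1) and 23.3 CPM (22.5 to 24.2) in stage order. Irx5 had 33.2 CPM (32.3 to 34.2), 31.6 (30.5 to 32.7), 26.5 (25.3 to 27.7) and 16.1 (15.4 to 16.8) in the same order. Both neighbours of the chromosome 8 cluster were lowest at E10.5. The last gene of that cluster, Irx6, known mainly from the retina, rested on few molecules: 4, 10, 27 and 103 UMIs, or 0.0264, 0.0943, 0.382 and 0.805 CPM.

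**Figure D1:**
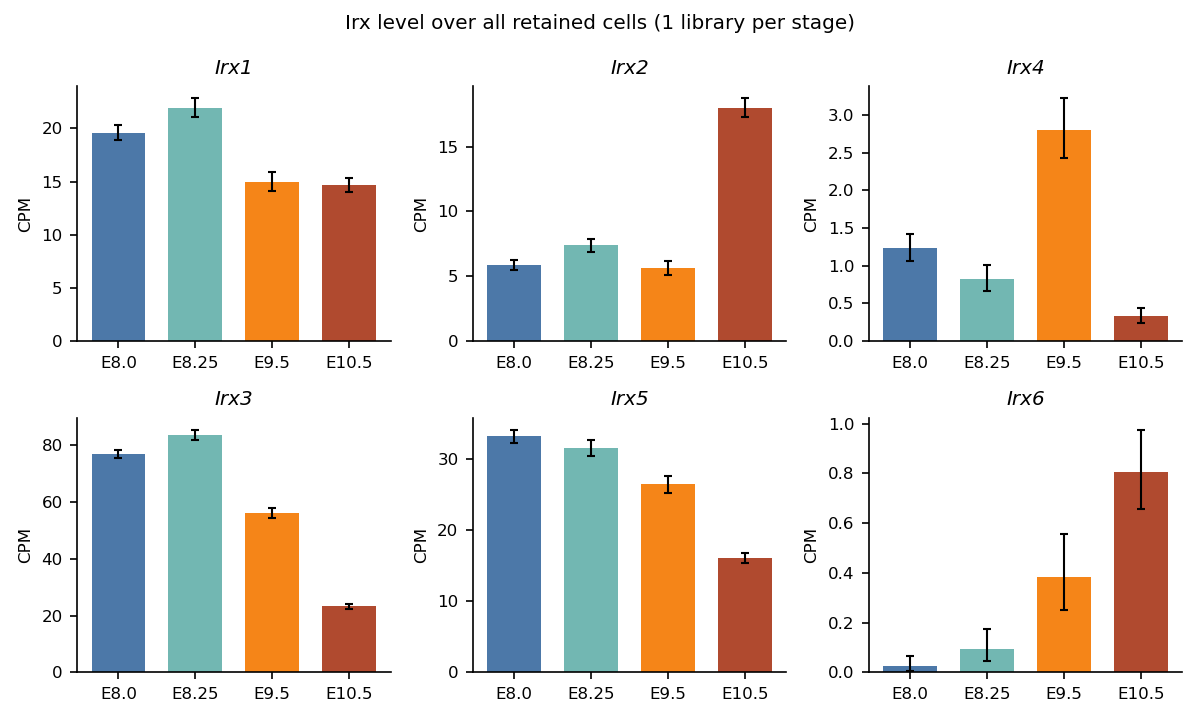
Level of each Irx gene over all retained cells of each library in CPM (y axis, a separate scale per gene), by stage (x axis), with exact 95% Poisson intervals as error bars. Irx3 is at 77.1 CPM at E8.0 and 23.3 at E10.5, while Irx2 is at 5.86 and 17.99 and Irx6 at 0.0264 and 0.805.

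With 1 library per stage, single stages were not tested against each other, and a gene was counted as changed when libraries of the same dissected region differed by 2-fold, among genes with at least 50 UMIs in both together. Between E8.0 and E8.25, 0 of the 5 Irx genes with enough UMIs passed (log2 ratio from -0.58 for Irx4 to 0.33 for Irx2), where 3.75% of 14232 genes were higher and 5.75% lower by that measure. Between E9.5 and E10.5, 4 of 6 passed: Irx2 (log2 ratio 1.68) and Irx6 (1.05) were higher at E10.5, and Irx4 (-3.08) and Irx3 (-1.27) were lower, where 7.39% of 14422 genes were higher and 4.38% lower. The log2 ratio of Irx1 was -0.03 and that of Irx5 was -0.71, and the median of all genes in this comparison was -0.14. Erythroid cells took up more of the E10.5 library than of the E9.5 library, and without them Irx3 was at 56.5 CPM at E9.5 and 29.7 at E10.5, which is less than 2-fold, while Irx2, Irx4 and Irx6 stayed beyond it.

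The lists of other genes differed among themselves. Of the 12 other TALE genes, 0 passed 2-fold in either comparison (median log2 ratio -0.17 from E8.0 to E8.25 and -0.25 from E9.5 to E10.5). Of the cardiac genes with a known link to Iroquois factors, Nppa, a natriuretic peptide gene, was higher at E8.25 than at E8.0 (log2 ratio 2.40) and Hey2, a ventricular repressor, lower (-1.29), among 4 measured. At E10.5, Bmp10, a trabecular growth factor gene (-3.39), and Nppa (-2.36) were lower than at E9.5, among 5 measured. Of the genes that flank the clusters, 11 could be measured in each comparison and 1, Lpcat2, a lipid enzyme gene next to the chromosome 8 cluster, passed at E10.5 (log2 ratio 1.03, from 0.496 to 1.02 CPM). Ndufs6 and Mrpl36 lie 50.3 and 58.9 kb beyond the chromosome 13 cluster and encode mitochondrial proteins. Their log2 ratios from E9.5 to E10.5 were -0.12 and -0.13, and that of Irx4 next to them was -3.08. Over the same step, the share of all UMIs from ventricular cardiomyocytes went from 4.60% to 0.654%. Within those cells Irx4 went from 57.2 to 40.6 CPM, with overlapping intervals. In all cardiomyocytes Nppa went from 774.2 to 622.6 CPM and Bmp10 from 5.31 to 2.81. How far the number of cardiomyocytes sets the ratios of Irx4, Nppa and Bmp10 was not tested.

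The share of cells with at least 1 UMI followed the levels. For shares after thinning, cells were thinned to 10000 UMIs and shallower cells were left out. This kept 6180, 2859, 3490 and 6076 cells in stage order. Irx3 was detected in 40.1%, 46.2%, 31.2% and 16.6% of these cells. Without thinning the shares of all retained cells were 52.6%, 72.1%, 40.1% and 21.9%. In erythroid cells thinned in the same way the share for Irx3 in the E8.0, E8.25 and E10.5 libraries was 2.38%, 15.8% and 1.52%, so that the E8.25 library carried more Irx3 in cells of that gate than the others did. Of the 406 erythroid cells at E8.25, 221 passed no other gate. Irx2 was detected after thinning in 4.85%, 6.23%, 4.79% and 12.03% of cells in stage order, Irx1 in 14.5%, 16.4%, 10.9% and 10.1%, and Irx5 in 23.2%, 23.0%, 18.6% and 11.4%.

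**Figure D2:**
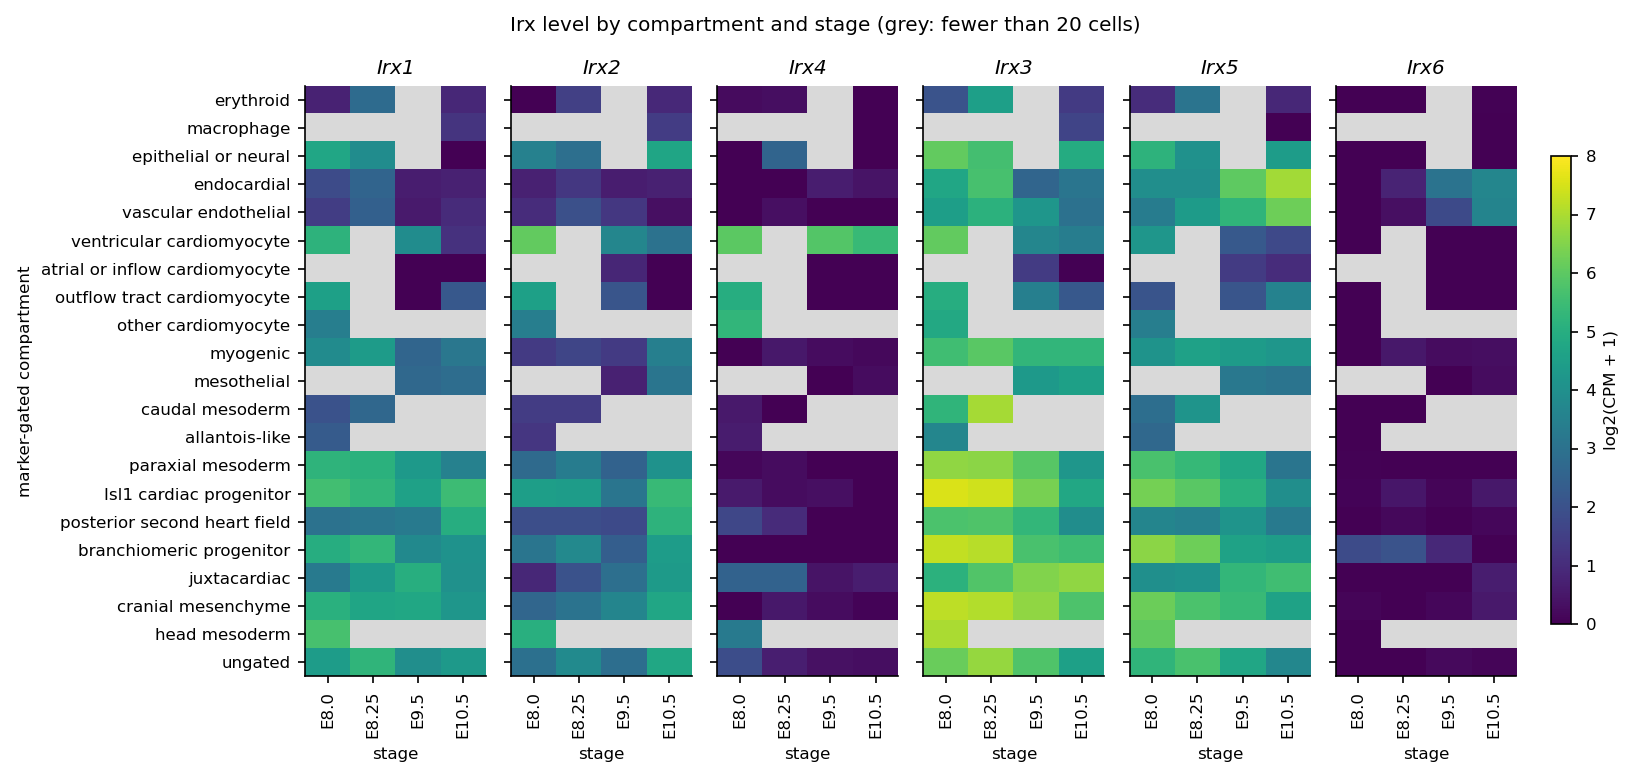
Level of each Irx gene as log2(CPM + 1) (colour) in marker-gated compartments (rows) at 4 stages (columns within each panel), with sums of fewer than 20 cells in grey. Irx4 is bright in the ventricular cardiomyocyte row, and at E8.0 also in the outflow tract and other cardiomyocyte rows. Irx3 and Irx5 are bright in mesodermal progenitor rows at the early stages, and Irx5 and Irx6 in endocardial and vascular endothelial rows at the late stages.

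At the early stages, Irx3 and Irx5 were highest in mesodermal progenitors. Irx3 reached its highest level in Isl1 cardiac progenitors, the undifferentiated cells that supply the heart tube (gated on Isl1 with Nkx2-5, Fgf10 or Fgf8), at 187.9 CPM (181.4 to 194.6) at E8.0. The later libraries had 170.1 (162.2 to 178.2), 81.9 (77.0 to 87.1) and 26.6 (23.4 to 30.2), so each stage lay below the one before, with no overlap of intervals. At E8.0 the branchiomeric progenitors, which give rise to head muscle, were at 153.1 CPM (116.8 to 197.1) in 20 cells and the cranial mesenchyme at 145.2 (139.1 to 151.4), and these neighbours in the order overlapped. Head mesoderm, with 21 cells, came next at 126.4 CPM (91.5 to 170.3), followed by paraxial mesoderm at 100.7 (97.1 to 104.3), whose interval lay below that of the cranial mesenchyme while that of head mesoderm overlapped both.

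Irx5 had the same leading compartments at E8.0, with 97.0 CPM (68.6 to 133.1) in branchiomeric progenitors, 78.9 (74.7 to 83.3) in Isl1 cardiac progenitors and 72.8 (68.5 to 77.2) in cranial mesenchyme, which overlapped pairwise. In Isl1 cardiac progenitors it was lower at each later stage, at 61.6 (56.9 to 66.5), 33.1 (30.0 to 36.5) and 14.5 (12.2 to 17.2). The juxtacardiac gate (Mab21l2 with Hand1, cells at the rim of the early heart) went the other way for both genes. There Irx3 was at 34.2, 55.6, 88.3 and 101.6 CPM in stage order and Irx5 at 14.9, 16.1, 38.3 and 46.2, so that by E10.5 Irx3 was higher in this gate than in any other measured.

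Irx1 and Irx2 shared the Isl1 cardiac progenitors with Irx3 at the early stages, and Irx2 was higher in most mesodermal compartments at E10.5 than before. Irx1 in Isl1 cardiac progenitors was at 46.3 CPM (43.1 to 49.7), 37.5 (33.9 to 41.4), 23.0 (20.4 to 25.9) and 43.6 (39.4 to 48.1) in stage order, so that the E10.5 interval overlapped that of E8.0. Irx2 there was at 21.3 (19.2 to 23.7), 20.5 (17.8 to 23.4), 7.67 (6.21 to 9.38) and 40.6 (36.6 to 44.9). The E10.5 library was the highest of the 4 for Irx2 and E9.5 the lowest. The posterior second heart field gate took Foxf1 with Tbx5, Osr1, Hoxb1 or Wnt2. The paper describes cardiac and lung progenitors among such cells, which the gate does not separate. Irx2 in this gate was at 2.78, 2.77 and 2.47 CPM in the first 3 libraries and at 35.1 (32.5 to 37.9) at E10.5. Irx1 in the same gate was at 7.15, 7.89 and 8.67 CPM, and at 30.4 (27.9 to 33.0) at E10.5.

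The higher level of Irx2 at E10.5 was found outside the heart fields too. From E9.5 to E10.5, cranial mesenchyme had 11.3 CPM (9.38 to 13.6) and 25.4 (23.3 to 27.7), branchiomeric progenitors 4.22 (2.70 to 6.28) and 20.5 (16.8 to 24.8), and myogenic cells (Myf5 or Myod1) 1.56 (0.672 to 3.06) and 9.96 (7.96 to 12.3). Irx1 took the other direction in cranial mesenchyme, where it was at 26.03 CPM (23.0 to 29.3) and then 17.5 (15.7 to 19.3). In erythroid cells, which should lack both genes, Irx1 was at 0.692, 5.96 and 0.866 CPM and Irx2 at 0, 1.86 and 0.901 in the E8.0, E8.25 and E10.5 libraries. At E8.25 the erythroid intervals of Irx1 (4.96 to 7.10) and Irx2 (1.32 to 2.54) overlapped those of the posterior second heart field (5.97 to 10.2 and 1.69 to 4.27).

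The level of Irx4 was highest in cardiomyocytes. The ventricular gate held 93.9% and 80.95% of its UMIs at E9.5 and E10.5, but 22.99% at E8.0. At E8.25 the epithelial or neural gate held 23 UMIs of Irx4 (26.4%) in 113 cells. The 15 cardiomyocytes of that library also held 23, at 50.9 CPM. Ventricular cardiomyocytes (Tnnt2, Actn2 and Myl7, with Myl2 high) had 62.3 (45.1 to 84.0), 57.2 (49.3 to 66.1) and 40.6 CPM (28.1 to 56.8) in the libraries other than E8.25, and the intervals of neighbouring stages overlapped. At E8.0 the outflow tract cardiomyocytes had 30.6 CPM (18.4 to 47.7) and the cardiomyocytes in no named class 37.3 (22.5 to 58.3), both overlapping the ventricular interval. At E9.5 and E10.5 no UMI of Irx4 was found in atrial or inflow or in outflow tract cardiomyocytes, where a limit of 3 UMIs per sum stands for 2.40 and 3.13 CPM in the atrial gate and 9.95 and 10.7 in the outflow gate, and the exact intervals reached 2.95, 3.85, 12.2 and 13.2. Outside cardiomyocytes its highest levels were 8.82 CPM (3 UMIs) in head mesoderm at E8.0 and 4.93 (3.13 to 7.40) in the epithelial or neural gate at E8.25. The juxtacardiac gate had 4.70 and 4.77 CPM of Irx4 at E8.0 and E8.25.

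Compartments were then compared within libraries, by edgeR's quasi-likelihood test on UMI counts summed per library and compartment with the library as a block. This asks whether a difference between compartments was larger than its spread over libraries. Each library is a pool of embryos of a different stage, so this spread holds change with stage and is not that of replicates. A gene was called at an adjusted p (Benjamini-Hochberg over all genes tested) under 0.05. Libraries entered with at least 20 cells on each side, which left E8.25, with 15 cardiomyocytes, out of both cardiomyocyte comparisons.

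All cardiomyocytes together differed from Isl1 cardiac progenitors in 4 of the 5 Irx genes tested, beside 32.4% of 12124 genes. Irx4 had 45.1, 38.4 and 15.9 CPM in cardiomyocytes at E8.0, E9.5 and E10.5, and 0.485, 0.242 and 0 in progenitors. It was higher in 3 of 3 libraries with no overlap (log2 fold change 7.06 ± 0.36 SE, edgeR adjusted p = 5.54e-05). Irx3 had 42.4, 8.78 and 4.21 CPM in cardiomyocytes against 187.9, 81.9 and 26.6 in progenitors, lower in 3 of 3 (-2.51 ± 0.22, edgeR adjusted p = 0.000504). Irx5 had 10.7, 3.06 and 2.81 against 78.9, 33.1 and 14.5, lower in 3 of 3 (-2.86 ± 0.23, edgeR adjusted p = 0.000328). Irx4 thus differed in the opposite direction from Irx3 and Irx5 between the same cells.

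Irx1 was lower in cardiomyocytes in 3 of 3 libraries (23.1, 9.19 and 0.936 CPM against 46.3, 23.0 and 43.6), but its edgeR adjusted p of 0.0490 lay at the threshold and was 0.134 without E9.5, within a range from 0.00116 to 0.181 over 10 alternatives. Irx2 was not called (-0.40 ± 0.67, edgeR adjusted p = 0.675): cardiomyocytes were higher at E8.0 (34.9 against 21.3 CPM), equal within counting error at E9.5 (8.17 against 7.67) and lower at E10.5 (2.81 against 40.6). Irx6 had 0 UMIs in cardiomyocytes of every library and was not tested. Without the library block, Irx3 and Irx5 were no longer called (adjusted p = 0.147 and 0.0531, the highest of 10 alternatives each, with lowest values of 7.56e-16 and 4.99e-12), while Irx4 was called in all 10.

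Among the listed genes in this comparison, 6 of 11 TALE genes tested were lower and 0 higher in cardiomyocytes (median log2 fold change -0.73, against -0.03 for all genes). Tgif1, a TALE repressor of TGF-beta signalling, was lowest of these (-2.12), and Meis1, Meis2, Pbx3 and Tgif2 lay between -1.04 and -0.64. Of 6 cardiac genes with a known link to Iroquois factors, 5 were tested and all 5 were called. Nppa (a natriuretic peptide, 9.35), Gja5 (a connexin of fast conduction, 5.06, higher in 2 of 3 libraries), Bmp10 (a trabecular growth factor, 4.28) and Hey2 (a ventricular repressor, 2.42) were higher, and Gja1 (the main connexin, -1.88) was lower. Of the 10 flanking genes tested, 2 were higher and 3 lower. Ndufs6 (0.88) and Mrpl36 (0.96), the nearest neighbours of Irx4, were higher in 3 of 3 libraries, like Irx4, and Mmp2 (a matrix protease, -2.72) and Lpcat1 (a lipid enzyme, -0.75) were lower. The transcript Irx3os, antisense to Irx3, was lower as well (-2.35 ± 0.67, edgeR adjusted p = 0.0366), at 0.315 ± 0.281 CPM in cardiomyocytes and 1.83 ± 1.01 in progenitors (SD, n = 3). Whether reads of the sense and antisense genes were kept apart was not tested.

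**Figure D3:**
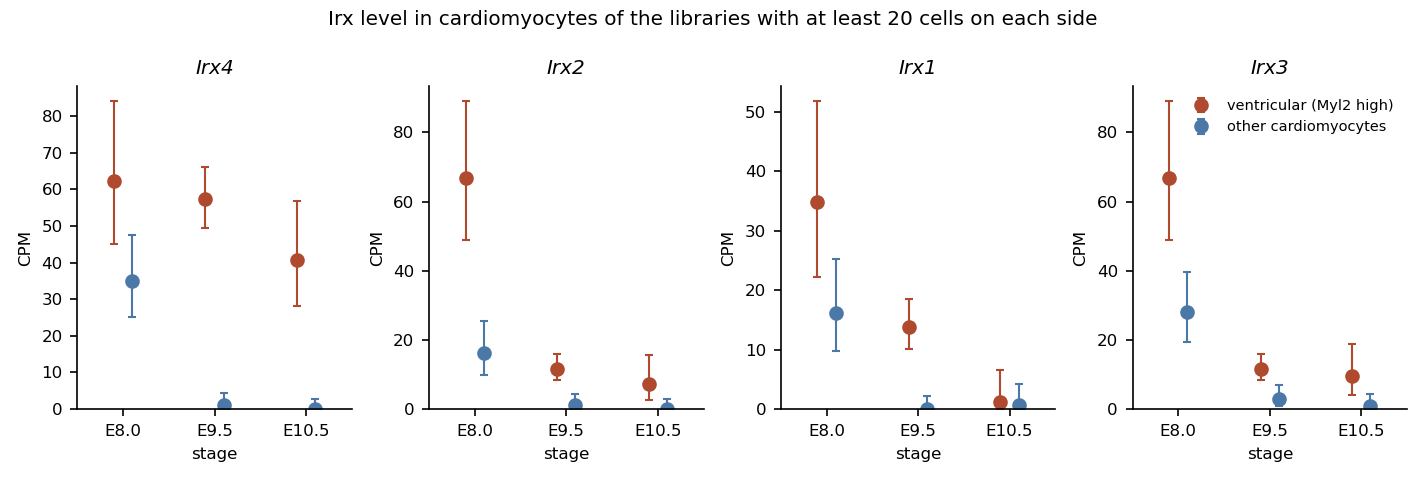
Level of 4 Irx genes in CPM (y axis, a separate scale per gene) in ventricular cardiomyocytes (red) and all other cardiomyocytes (blue) at 3 stages (x axis), with exact 95% Poisson intervals. Irx4 stays at 40.6 CPM or more in ventricular cells, while in other cardiomyocytes it is at 35, 1.22 and 0 in the same stages.

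Among cardiomyocytes, the ventricular cells had more of 3 of the 4 Irx genes that could be tested, beside 1.19% of 8540 genes called. Irx4 was at 62.3, 57.2 and 40.6 CPM in ventricular and 35, 1.22 and 0 in other cardiomyocytes at E8.0, E9.5 and E10.5 (2.61 ± 0.57, edgeR adjusted p = 0.0457). The intervals overlapped at E8.0 (25.1 to 47.5 in the others against 45.1 to 84.0) and were apart at both later stages. Irx2 was at 66.7, 11.7 and 7.17 CPM against 16.2, 1.22 and 0 (2.45 ± 0.39, edgeR adjusted p = 0.00897), and Irx3 at 66.7, 11.7 and 9.56 against 28.2, 3.04 and 0.769 (1.62 ± 0.33, edgeR adjusted p = 0.0363). Both were higher in ventricular cells in 3 of 3 libraries. On either side both were lower at E9.5 than at E8.0, with intervals apart. From E9.5 to E10.5 the intervals overlapped on either side, and the ventricular sums at E10.5 held 6 UMIs of Irx2 and 8 of Irx3.

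Irx1 was also higher in 3 of 3, at 34.8, 13.8 and 1.19 CPM against 16.2, 0 and 0.769, and was not called (1.92 ± 0.54, edgeR adjusted p = 0.134). In ventricular cells from E8.0 to E10.5, Irx4 went from 62.3 to 40.6 CPM while Irx1 went from 34.8 to 1.19 and Irx2 from 66.7 to 7.17. These calls rest on 34, 172 and 46 ventricular cells. Without the E9.5 library the adjusted p was 0.288 for Irx2, 0.969 for Irx4 and 0.712 for Irx3, and without E10.5 Irx1 was called (0.0133). Over the alternatives the range was 1.91e-09 to 1.00 for Irx2, 9.31e-22 to 1.00 for Irx4, 3.40e-05 to 1.00 for Irx3 and 9.51e-05 to 1.00 for Irx1. Of the lists, Meis2 (0.59), Hey2 (2.82) and the Irx4 neighbour Mrpl36 (0.75) were higher and Gja5 (-2.07) lower in ventricular cells.

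The posterior second heart field had less of Irx1, Irx2, Irx3 and Irx5 than the Isl1 cardiac progenitors in 4 of 4 libraries. By the test, 1 of the 5 genes measured was called, Irx3, beside 1.16% of 12838 genes. Irx3 was at 51.8, 54.7, 38.4 and 14.1 CPM in the posterior cells and 187.9, 170.1, 81.9 and 26.6 in the Isl1 cells (-1.39 ± 0.17, edgeR adjusted p = 0.0274). The ranges over stages overlapped, but within each library the posterior value was below. Without E8.0, E8.25 or E9.5 the adjusted p of Irx3 was 0.0904, 0.150 or 0.0820, within 6.94e-12 to 0.949 over 11 alternatives.

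The differences of the other genes narrowed at E10.5. For Irx1 the posterior values were 7.15, 7.89, 8.67 and 30.4 CPM against 46.3, 37.5, 23.0 and 43.6 (-1.64 ± 0.37, edgeR adjusted p = 0.117). Irx2 was at 2.78, 2.77, 2.47 and 35.1 against 21.3, 20.5, 7.67 and 40.6 (-1.71 ± 0.50, edgeR adjusted p = 0.203), and Irx5 at 11.4, 10.4, 16.7 and 8.53 against 78.9, 61.6, 33.1 and 14.5 (-1.76 ± 0.39, edgeR adjusted p = 0.117). Without the E10.5 library all of these were called, with adjusted p of 0.0129, 0.0116 and 0.0362, and the lowest and highest over 11 alternatives were 6.27e-05 and 0.649 for Irx1, 0.00117 and 1.00 for Irx2, and 0.0173 and 0.366 for Irx5. Irx4 was at 2.29, 0.969, 0 and 0 CPM in the posterior cells against 0.485, 0.194, 0.242 and 0 and was not called (1.48, edgeR adjusted p = 0.563), though at E8.0 the intervals were apart (1.45 to 3.43 against 0.209 to 0.955). By edgeR, 0 of the 12 TALE genes and 0 of the 10 flanking genes tested were called, and 3 of each had an unadjusted p under 0.05, Irx3os among them (-1.48 ± 0.25, edgeR adjusted p = 0.0647).

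Branchiomeric progenitors had less Irx1 and Irx2 than Isl1 cardiac progenitors, while Irx3 and Irx5 were not called. Of 5 Irx genes tested 2 were called, beside 2.76% of 12358 genes. Irx2 was at 7.65, 12.7, 4.22 and 20.5 CPM in stage order against 21.3, 20.5, 7.67 and 40.6, lower in 4 of 4 libraries (-0.93 ± 0.17, edgeR adjusted p = 0.00490). The intervals were apart at E10.5 and overlapped in the other libraries, and the early branchiomeric sums held 3 and 8 UMIs of Irx2. Irx1 was at 30.6, 38.1, 12.8 and 15.97 against 46.3, 37.5, 23.0 and 43.6, lower in 3 of 4 (-0.88 ± 0.18, edgeR adjusted p = 0.0112). The early branchiomeric sums held 20 and 22 cells and the late ones 323 and 361, and without E10.5 the adjusted p was 0.0810 for Irx2 and 0.138 for Irx1 (without E8.0, 0.0746 for Irx1). Over 11 alternatives it ran from 5.02e-05 to 1.00 for Irx2 and from 4.49e-07 to 1.00 for Irx1.

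Irx3 (-0.17 ± 0.17, edgeR adjusted p = 0.902) and Irx5 (0.08 ± 0.15, edgeR adjusted p = 0.978) had smaller differences. For Irx3 the direction turned between stages: 153.1, 139.6 and 50.7 CPM against 187.9, 170.1 and 81.9 at the first 3 stages, and 44.3 (38.8 to 50.4) against 26.6 (23.4 to 30.2) at E10.5. Without E10.5, Irx3 was called (adjusted p = 0.00194, the lowest of 11 alternatives, of which the highest was 1.00). Irx6 had 8 UMIs in branchiomeric cells over the 4 libraries and was not called (edgeR adjusted p = 0.638).

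**Figure D4:**
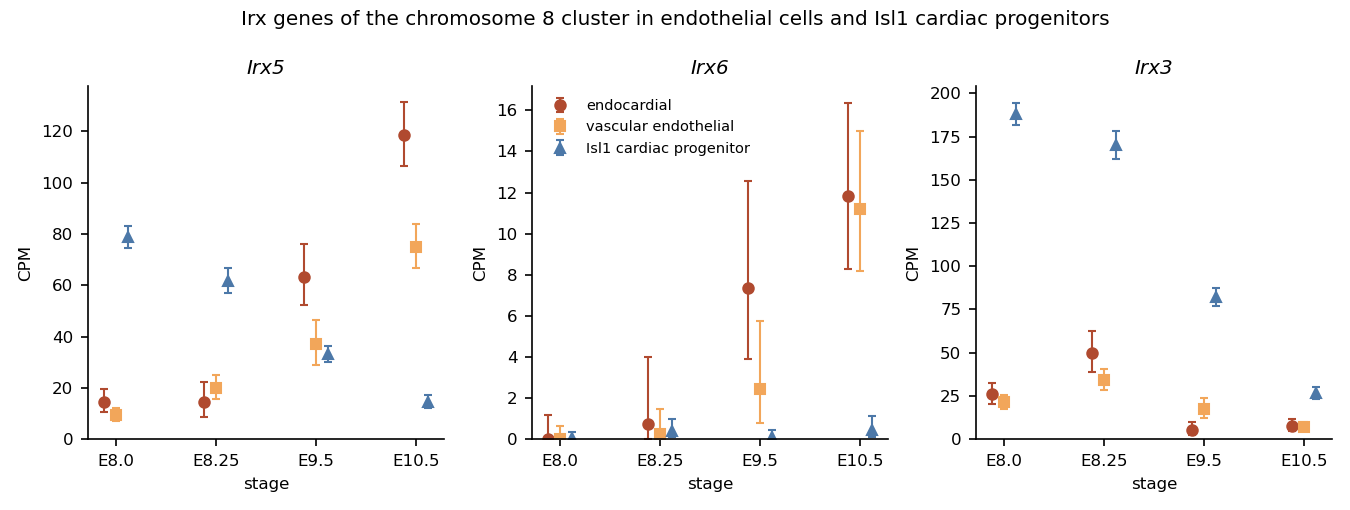
Level of Irx5, Irx6 and Irx3 in CPM (y axis, a separate scale per gene) by stage (x axis) in endocardial cells (circles), vascular endothelial cells (squares) and Isl1 cardiac progenitors (triangles), with exact 95% Poisson intervals. At E10.5, Irx5 is at 118.6 CPM in endocardial cells and 14.5 in Isl1 cardiac progenitors, and Irx3 is lower in all 3 at E10.5 than at E8.25.

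In endothelial cells the genes of the chromosome 8 cluster separated. Endocardial cells (at least 3 of 6 endothelial markers, with Nfatc1) line the heart, and vascular endothelial cells were those without Nfatc1. Irx5 in endocardial cells was at 14.5 (10.6 to 19.5), 14.4 (8.78 to 22.2), 63.4 (52.2 to 76.2) and 118.6 CPM (106.7 to 131.5) in stage order. In vascular endothelial cells it was at 9.31 (6.99 to 12.1), 19.8 (15.6 to 24.8), 36.9 (29.0 to 46.3) and 74.8 (66.5 to 83.7). In both the late libraries were above the early ones, and at E10.5 these were the 2 compartments with the most Irx5. After thinning, 40.9% of endocardial cells at E10.5 had an Irx5 UMI, against 0.910% of erythroid cells of that library.

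Irx6 appeared in the same cells. Endocardial cells had 0, 1, 13 and 36 UMIs of it in stage order, or 0, 0.719, 7.35 (3.92 to 12.6) and 11.8 CPM (8.28 to 16.4). Vascular endothelial cells had 0, 1, 5 and 45 UMIs, or 0, 0.261, 2.46 (0.799 to 5.74) and 11.2 CPM (8.18 to 15.01). Of the 103 Irx6 UMIs at E10.5, 34.95% were in endocardial and 43.7% in vascular endothelial cells, which gave 2.38% and 3.14% of all UMIs of that library. Irx3, at the other end of the cluster, took the reverse course in endocardial cells, with 25.9 (20.5 to 32.2), 49.6 (38.6 to 62.8), 5.09 (2.33 to 9.66) and 7.56 CPM (4.79 to 11.3). In erythroid cells Irx3 was at 3.12 CPM at E8.0 and 21.9 at E8.25, which lies below both endothelial values of those stages.

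A comparison added after these levels had been seen took the difference between all endothelial cells (both gates) and Isl1 cardiac progenitors and tested whether it changed from the early to the late pair of libraries, as an interaction in edgeR. Irx5 was called, beside 3.65% of 12710 genes. Endothelial cells had 11.1 and 18.4 CPM at E8.0 and E8.25 against 78.9 and 61.6 in progenitors, and 49.2 and 93.7 at E9.5 and E10.5 against 33.1 and 14.5, so that the order of the compartments turned over (change of 3.98 ± 0.61 on the log2 scale, edgeR adjusted p = 0.0130). It was called in all 8 alternatives, with an adjusted p from 0.00246 to 0.0183. Because the pattern chose the test, the value describes its size against the spread between libraries and is no independent evidence, and region cannot be told apart from stage in it. Irx6 had a change of 5.38 ± 1.33 (edgeR adjusted p = 0.0687) and was not called, nor were Irx1 (-1.74, edgeR adjusted p = 0.190), Irx2 (-1.52, edgeR adjusted p = 0.454) and Irx3 (0.29, edgeR adjusted p = 0.730).

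Between the 2 endothelial gates themselves no Irx gene was called, where 0.0941% of 10624 genes (10 genes) were. Irx5 was higher in endocardial than in vascular endothelial cells in 3 of 4 libraries (0.52 ± 0.15, edgeR adjusted p = 0.316, unadjusted 0.00358) and was called without E8.25 (adjusted p = 0.0298, in a range from 0.00703 to 1.00 over 11 alternatives). Irx1 (0.21), Irx3 (0.10) and Irx6 (0.46) had unadjusted p-values of 0.275 or more, so that 1 of 4 had one under 0.05, and DESeq2 also called 0. The gates differ by a single transcript, Nfatc1, which a shallow cell can miss.

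Genes with the most similar course were sought over 49 sums of library and compartment with at least 50 cells, by Pearson's r of log2(CPM + 1) among 10663 genes. These sums share libraries and mark cell types, so the values are a description. For Irx2 the gene ranked first was its own neighbour Irx1 (r = 0.785), followed by Fam110b (0.765) and Ephb3 (0.762). For Irx1 they were Fzd2, a Wnt receptor (0.853), Ephb3, an ephrin receptor (0.846), and Clmp (0.845), with Irx3 at rank 14 (0.801) and Irx2 at rank 17. Irx3 was followed most closely by 2610318N02Rik (0.874), Enkd1 (0.836) and Srsf1, a splicing factor gene (0.835), and Irx5 by Itga9, an integrin gene (0.811), Tspan6 (0.802) and Fxyd6 (0.773).

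Irx3 and Irx5 correlated at 0.658, and Irx5 and Irx6 at 0.445. For Irx4 the nearest genes were Fcmr (0.773), Avp (0.724) and Gpr22 (0.712), and for Irx6 they were Clec4g (0.914), Prl3b1 (0.897) and Pde8a (0.893). Of the ventricular sums, only that of E9.5 (172 cells) had enough cells to enter. Irx4 was at 57.2 CPM there and at 4.93 or less in every other sum entered. The r values of Irx4 therefore rest largely on that sum. The members nearest to Irx4 and Irx6 were Irx1 (0.136) and Irx5. No chromosome 13 gene was close to Irx6, with r of -0.42 for Irx1, -0.28 for Irx2 and -0.12 for Irx4.

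Whether genes of the same cluster were found in the same cells was examined in single cells thinned to 10000 UMIs, without the shallower cells. Of the thinned cells, those in which no Irx gene was detected made up 49.0%, 41.7%, 55.0% and 65.9% in stage order. No cell had 5 or 6 genes. For each pair, the Mantel-Haenszel odds ratio over compartments says how much higher the odds of detecting 1 gene were in cells with the other, within the same gate, so that a shared compartment alone gives 1. It is given where at least 5 cells with both were expected. Cells are not replicates and no p is attached.

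Irx3 and Irx5 were detected together more often than compartments alone would give in all 4 libraries. At E8.0, 1048 cells had both, where 787.2 were expected within compartments (odds ratio 3.72). The later libraries had 455 for 360.3 (2.44), 379 for 231.0 (3.62) and 271 for 156.2 (3.01). Of cells with Irx5, 73.1%, 69.2%, 58.3% and 39.2% also had Irx3 in stage order. In posterior second heart field cells, where both were low, the excess was 2.28, 1.59, 2.01 and 2.84 times the expected number, and in Isl1 cardiac progenitors 1.15, 1.13, 1.79 and 1.77 times.

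The odds ratio of Irx1 with Irx2 was higher at E10.5 than before. Irx2 was also detected in more cells at that stage after thinning (12.03%, against 4.79% at E9.5). The part of detection in this odds ratio was not tested. The odds ratio was 1.93, 2.01 and 2.59 in the first 3 libraries and 8.45 at E10.5, where 305 cells had both and 98.0 were expected within compartments. At that stage 49.8% of cells with Irx1 had Irx2 and 41.7% of cells with Irx2 had Irx1, against 11.3% and 33.7% at E8.0. In the posterior second heart field at E10.5, 101 cells had both where 24.3 were expected, in Isl1 cardiac progenitors 64 for 20.6, and in cranial mesenchyme 66 for 29.8.

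Irx5 and Irx6 could be measured as a pair at E10.5: of 39 cells with Irx6, 26 (66.7%) had Irx5, where 10.3 were expected within compartments (odds ratio 8.56). The other libraries had 9 Irx6 cells or fewer after thinning. Irx4 was not tied to Irx3, with odds ratios of 0.812, 0.435 and 1.08 in the first 3 libraries. With Irx1 its odds ratio was 1.82 at E8.0 and 1.81 at E9.5, on 11 and 12 cells, and with Irx2 1.05 and 1.40, on 8 and 9.

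**Figure D5:**
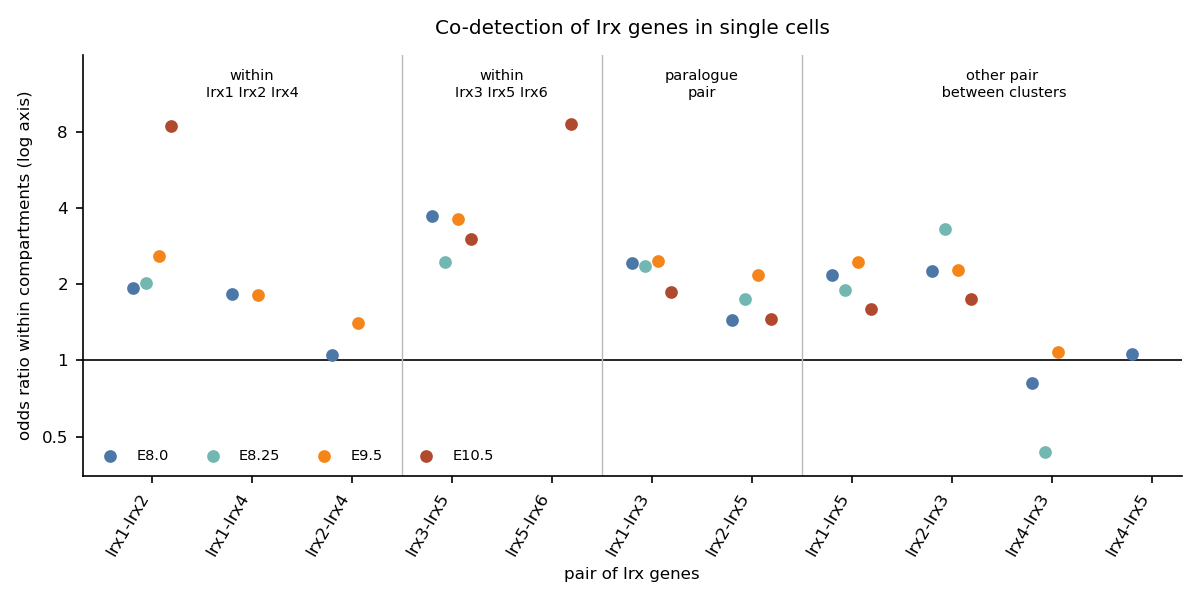
Mantel-Haenszel odds ratio over compartments (y axis, log axis) for each pair of Irx genes (x axis), with 1 point per library where at least 5 cells with both genes were expected, and a line at 1. Irx3 with Irx5 lies between 2.44 and 3.72 in all libraries, and the E10.5 points of Irx1 with Irx2 (8.45) and of Irx5 with Irx6 (8.56) are the highest.

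Most pairs across the clusters were also above 1, with Irx4 and Irx3 as the exception at the early stages. The paralogues Irx1 and Irx3 had odds ratios of 2.43, 2.36, 2.47 and 1.86 in stage order, and Irx2 and Irx5 1.44, 1.75, 2.18 and 1.45. Side by side, the median was 1.87 over 8 values within the chromosome 13 cluster (from 1.05 to 8.45), 3.62 over 5 values within the chromosome 8 cluster (2.44 to 8.56), 2.02 over 8 values of paralogues (1.44 to 2.47) and 1.82 over 12 values of other pairs between clusters (0.435 to 3.31). The 5 values within the chromosome 8 cluster come from 2 pairs, Irx3 with Irx5 in all libraries and Irx5 with Irx6 at E10.5. The ranges of the 4 kinds of pair overlapped. As a reference added afterwards, each Irx gene was paired with the other TALE genes, of which 11 or 12 could be measured for Irx1, Irx2, Irx3 and Irx5 and fewer for Irx4 and Irx6: the median odds ratio of Irx3 was 0.972, 1.02, 1.08 and 1.05 in stage order, that of Irx1 0.897, 0.981, 1.04 and 1.03, that of Irx2 0.902, 1.07, 1.09 and 1.09, and that of Irx5 0.901, 0.983, 1.08 and 1.05. Irx4, with 4 to 9 TALE genes measured, had medians of 0.989, 0.656, 0.751 and 1.07, and Irx6, with 2 and 7, had 0.667 and 1.03 at E9.5 and E10.5. Single TALE pairs reached 3.30 (with Irx2 at E9.5).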

How the data were processed

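The authors deposited filtered UMI counts per gene and cell for 4 libraries, 1 per stage, made from 10x Genomics 3' reads with Cell Ranger 3.1.0 on mm10, as the submitters' processing notes list them. The counts are not normalized. Here, cells with fewer than 1000 genes or over 10% mitochondrial UMIs were left out, and doublets were removed with Scrublet (scanpy 1.11.5) at a set share of 0.8% per 1000 cells, which took 459, 70, 131 and 517 cells. Cells went to the first of 20 marker gates passed. Sums per library and compartment were tested with edgeR 4.0.16 (R 4.3.3; TMM, filterByExpr, quasi-likelihood F test, library as a block) with Benjamini-Hochberg adjustment over all genes tested. The block is the pool of embryos: both compartments of a library come from the same pool. Exact 95% Poisson intervals cover counting error only. With 1 library per stage, no test of 1 stage against another was made. Nothing says that libraries repeat a condition, so p-values measure the spread of a compartment difference over stages.

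The named genes were the 6 members, 12 other TALE homeobox genes (Meis, Pbx, Pknox, Tgif and Mkx), 6 cardiac genes with a known link to Iroquois factors, the nearest 3 named protein-coding genes on each side of each cluster with Irx3os, and the 3 genes most similar to each member. The values of 1 listed gene are not reported here. Members, gates and lists were chosen with earlier results of these data known. The endothelial interaction and the TALE co-detection reference were added after values had been seen. The test was checked on simulated counts. Alternatives were DESeq2 1.42.0, no filter, no block, each library left out, gates after thinning to 8000 UMIs, cells passing exactly 1 gate, doublets kept and all barcodes. Promoter windows came from RefSeq (GRCm38.p6), and other promoters and proteins of the members are not analysed here.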

Additional observations from a re-analysis of the deposited data

Results flagged for a closer look

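The difference in Irx5 between endothelial cells and Isl1 cardiac progenitors was not the same in the early and the late libraries: by the edgeR interaction it was 3.98 higher on the log2 scale at E9.5 and E10.5 than at E8.0 and E8.25. Endothelial cells were below progenitors in both early libraries and above them in both late ones. The test was added after the levels had been seen, and stage cannot be told apart from dissected region.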

How the results depend on the processing

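No direction of a called difference turned under any alternative run. Each stage is 1 library, the early branchiomeric and E8.0 ventricular sums are small, and Irx6 rests on few UMIs. Causes of the changes below were not tested.

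Without the library block, the pairing within libraries is ignored, and the Irx genes called were 1 of 4 in cardiomyocytes against progenitors, 0 of 3 in ventricular cells, 0 of 1 in the posterior second heart field and 0 of 2 in branchiomeric progenitors. All genes called were then 1468 (from 3930), 0 (from 102), 6 (from 149), 0 (from 341) and 1 (from 10, endocardial against vascular).

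With DESeq2, 1 Irx gene was called in ventricular cells, 4 in the posterior second heart field and 1 in branchiomeric progenitors, and 18, 461 and 169 genes in all, with 4 for endocardial cells. With no filter, 3 Irx genes were called in the posterior second heart field and 1 in endocardial cells, and 344, 340, 655 and 248 genes in all for ventricular, posterior, branchiomeric and endocardial cells. With gates after thinning, 1 Irx gene was called in branchiomeric progenitors, and 381 posterior and 117 endocardial genes in all. With cells passing exactly 1 gate, 2 Irx genes were called in the posterior second heart field and 1 in endocardial cells, and 2180, 56, 357, 640 and 51 genes in all, in the order cardiomyocyte, ventricular, posterior, branchiomeric and endocardial. With all barcodes, 56 ventricular genes were called, and 2 Irx genes in the endothelial interaction, as with doublets kept.

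Leaving out each library in turn gave 3 to 4 Irx genes and 1005 to 4960 genes in all for cardiomyocytes, 0 to 4 and 5 to 464 for ventricular cells, 0 to 4 and 29 to 455 for the posterior second heart field, 1 to 2 and 218 to 393 for branchiomeric progenitors, 0 to 1 and 2 to 74 for endocardial cells, and 1 to 2 and 169 to 543 for the interaction.

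Irx2 in Isl1 cardiac progenitors at E10.5 was 34.1 CPM with gates after thinning and 35.5 with exactly 1 gate, Irx4 in ventricular cells at E9.5 was 67.6 with exactly 1 gate, and Irx3 in Isl1 cardiac progenitors at E8.0 was 195.6 and Irx5 in endocardial cells at E10.5 95.02 with gates after thinning. The median odds ratio of Irx3 with Irx5 was 5.12 without thinning and 4.14 without compartments, and that of Irx1 with Irx3 was 1.82 at 5000 UMIs, 3.24 without thinning and 3.28 without compartments.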
